A study of Mus musculus with 11 samples.

Results

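The genes described here are the transcription factor Myc and the factors that build ribosomes, 49 genes in all, taken by symbol from the 54532 genes of the deposited count table. By role they are Myc, 6 genes of RNA polymerase I transcription, 9 genes of the small nucleolar ribonucleoproteins (snoRNPs), 4 abundant nucleolar proteins, 16 factors of the small ribosomal subunit and 13 factors of the large subunit. All 49 symbols were found and all 49 genes passed the filter on low counts. Each was read in poly(A) RNA of whole pancreas from C57BL/6JRj mice, an inbred laboratory strain, at 7 weeks (young) or 18 months (aged). Treated mice received 4 hourly intraperitoneal doses of 125 µg/kg caerulein and their tissue carries the label 5H. Caerulein mimics cholecystokinin, the gut hormone of acinar secretion, and high doses damage the acinar cells. The untreated groups held 3 young and 2 aged mice and the caerulein groups 3 mice of each age, with 1 library per mouse by the labels. The labels give no vehicle injection for the untreated mice and no genetic change in any group, and the time from the first injection to sampling can be read in more than 1 way, so it is given only as the label 5H.

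Ribosome assembly begins in the nucleolus, where RNA polymerase I copies the ribosomal DNA into a long precursor. Box C/D snoRNPs guide methylation of that precursor, box H/ACA snoRNPs guide its pseudouridylation, and separate sets of assembly factors fold, cut and export the small and the large subunit. Myc is a transcription factor that, paired with Max, binds the DNA element CACGTG (the E-box) and is known for raising the expression of many of these genes in growing cells. Acinar cells hold very large amounts of ribosome-covered endoplasmic reticulum, since they make the digestive enzymes. Poly(A) capture reads the messenger RNAs of the factors, not the ribosomal RNA or the snoRNAs that they act on.

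Depth was 14223190 to 26537091 counted reads per library, and the lowest count of any member was 35 reads, for Rrp1b in aged untreated mouse 2. Levels are given as CPM, the reads of a gene scaled to a common library size, after TMM scaling, a correction for libraries in which a few very abundant transcripts take up many of the reads, with scaling factors of 0.696 to 1.29. Young untreated mouse 2 stood apart: the 9 B and plasma cell markers summed to 231 CPM, without TMM scaling, against at most 5.32 in any other library, the 10 T and NK cell markers to 122 against at most 1.41, and the 6 adipocyte markers to 260 against at most 30.1. The 10 acinar markers summed to 390000 to 423000 CPM in untreated and 309000 to 340000 in caerulein libraries, and the 6 duct markers to 40.7 to 71.7 and 208 to 299. The 8 myeloid markers summed to 292 CPM in young untreated mouse 2, to 17.8 to 30.6 in the other 4 untreated libraries and to 26.7 to 78.1 in caerulein libraries, and the 7 endothelial and fibroblast markers to 328 in that mouse against at most 201 elsewhere. The 6 islet markers varied widely within groups, at 250 to 1820 CPM in young untreated and 227 to 732 in aged untreated mice. After caerulein they summed to 167 to 2570 CPM in young and 167 to 2410 in aged mice. No gene of these lists was at 0 in every library. Fewer cells of a type and less RNA per cell cannot be told apart in bulk tissue, and the part of these shifts in the results below was not tested.

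Caerulein raised most of the set at both ages. The members were chosen with earlier results of these data known, so shares set beside those of all genes are descriptions. In young mice 41 of the 49 genes were higher than in untreated mice and 0 were lower, and the same counts, 41 and 0, were found in aged mice (edgeR's quasi-likelihood test, Benjamini-Hochberg adjusted p below 0.05 over the 14113 genes tested). Of all genes tested, 27.5% were higher and 24.7% lower in young mice, and 27.0% and 21.2% in aged mice. With the young mice paired by number, 35 members were higher and 0 lower, beside 24.7% and 18.8% of the 12848 genes in that fit. The median log2 fold change of the members was 1.28 in young mice (range -0.21 to 2.54) and 1.48 in aged mice (range -0.13 to 3.02), where the medians over all genes were -0.06 and 0.07. With library totals in place of TMM the all-gene medians moved up by 0.494 and 0.619 on the log2 scale to 0.43 and 0.69, the members' medians went to 1.81 and 2.12, and the calls over all genes split as 37.7% higher and 8.99% lower in young mice and 38.6% and 7.61% in aged mice.

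Between libraries the groups were well apart. Every caerulein library lay above every untreated one for 42 members in young mice and for 46 in aged mice, a pattern shown by 30.7% and 37.8% of all genes tested. The 49 genes together took 0.0448% to 0.0711% of all counts in the untreated libraries, the highest share being that of young untreated mouse 2, and 0.176% to 0.219% in the caerulein libraries. These shares are without TMM scaling. After TMM scaling the sums were 595 to 656 CPM in untreated and 1370 to 1850 CPM in caerulein libraries. No member was called lower at either age, by edgeR or by DESeq2, and no member with a negative fold change had an unadjusted p below 0.05. The 38 genes called higher at both ages included Myc, all 4 abundant nucleolar proteins and most of the assembly factors of both subunits. Polr1a, Rrn3, Nop10, Nolc1 and Wdr12 were called at neither age.

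**Figure D1:**
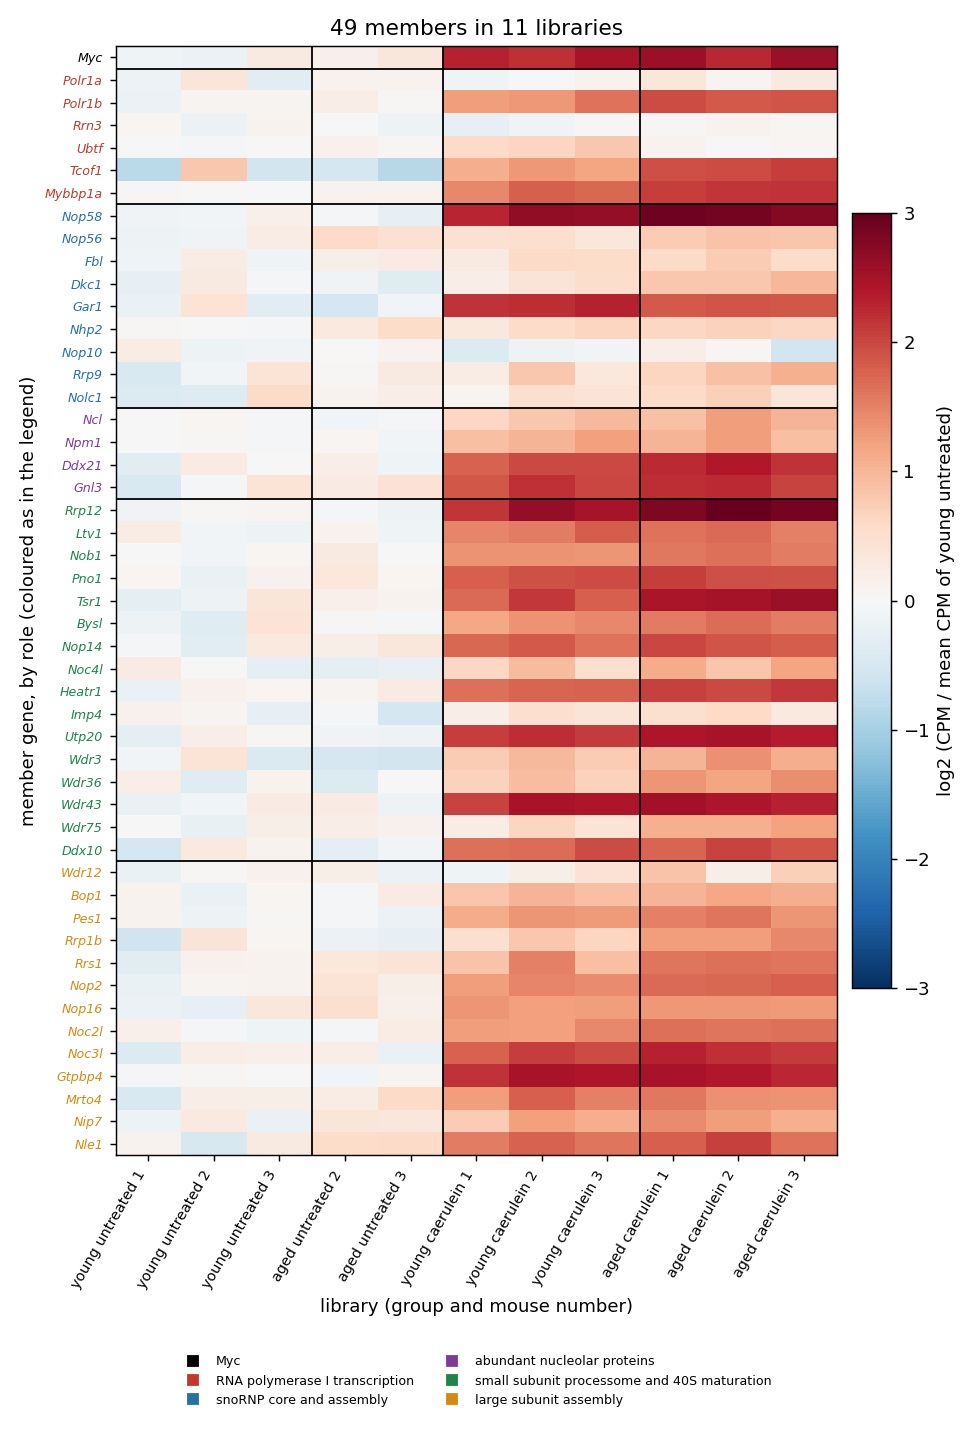
Level of each of the 49 genes (rows, grouped and coloured by role) in each of the 11 libraries (columns), as the log2 ratio of its CPM to the mean CPM of the 3 young untreated libraries, in red where higher and blue where lower. The caerulein columns are red for most of the 41 genes called at each age, of which 38 were called at both. The rows of Polr1a, Rrn3 and Nop10 stay pale throughout. Called genes with small log2 fold changes, such as Fbl (0.47 and 0.43), are pale too, as is Ubtf in aged caerulein mice.

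Myc rose at both ages. The gene lies at chr15:61985391-61990374 on the plus strand (mm10). It stood at 10.8, 10.4 and 14.2 CPM in the young untreated mice and at 13.2 and 14.9 CPM in the aged untreated mice. After caerulein it reached 58.5, 54.1 and 65.3 CPM in young mice and 69.4, 56.7 and 71.4 CPM in aged mice. Untreated and caerulein libraries did not overlap, whereas the young and aged values overlapped within each treatment. The log2 fold change was 2.33 ± 0.15 (SE, adjusted p = 4.88e-07) in young and 2.22 ± 0.18 (adjusted p = 2.63e-06) in aged mice. In the authors' deposited table the Myc log2 fold changes are 2.31 and 2.19.

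**Figure D2:**
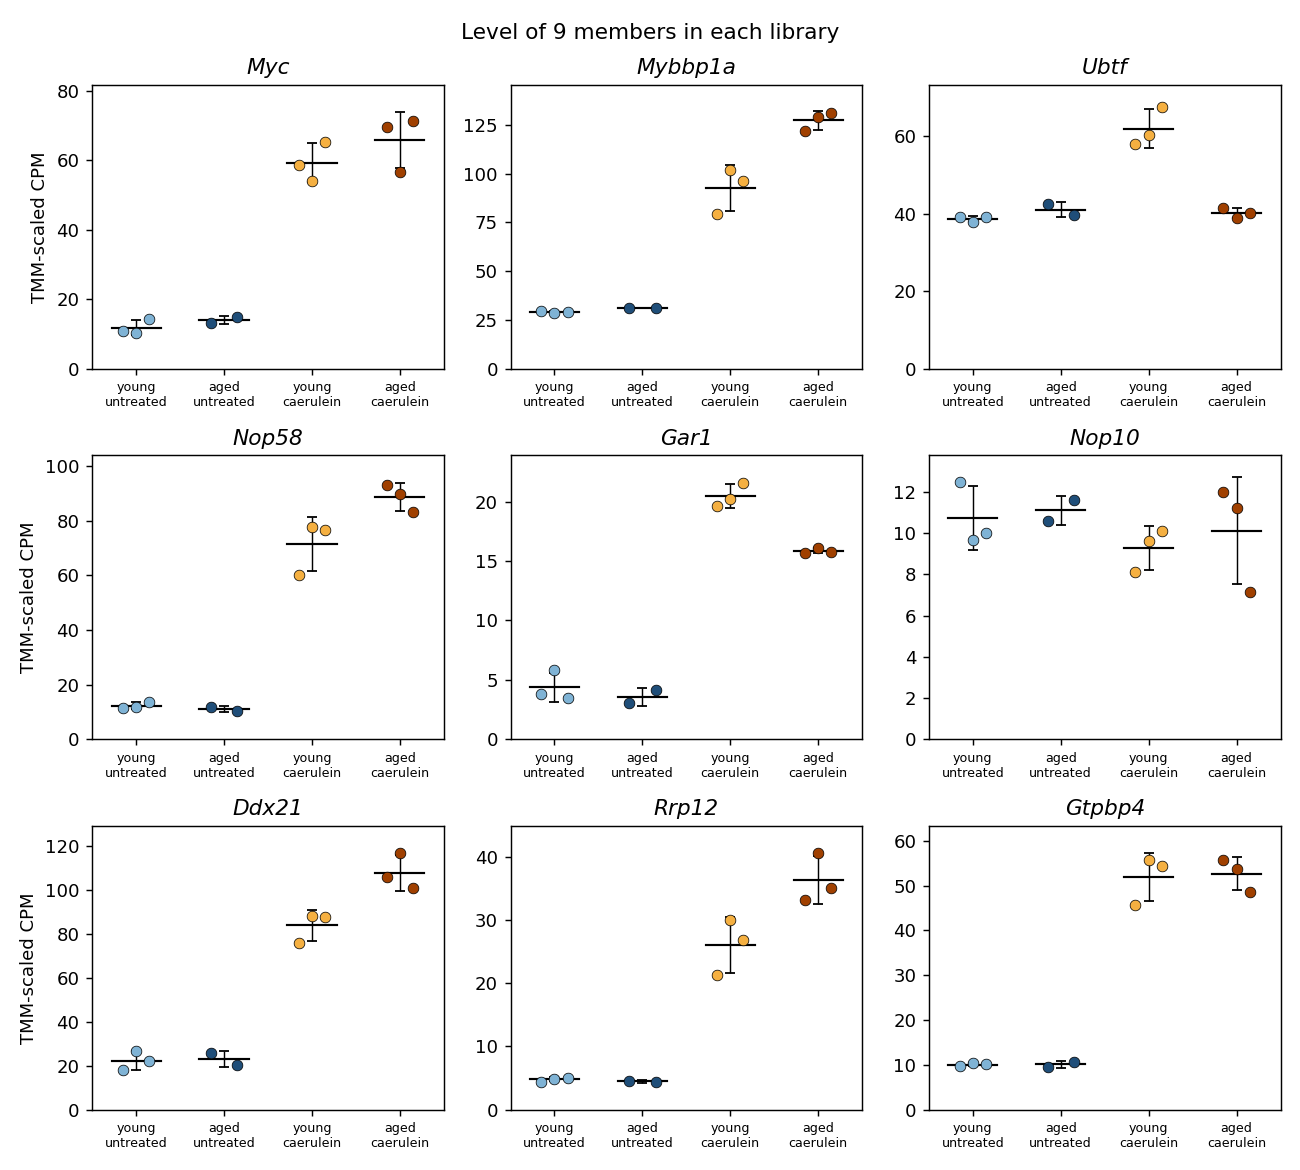
TMM-scaled CPM of 9 genes of the set in each library (points), with the group mean (horizontal line) and SD (bar) for untreated mice (3 young, 2 aged) and caerulein mice (3 of each age). Myc, Mybbp1a, Nop58, Gar1, Ddx21, Rrp12 and Gtpbp4 are separated by treatment at both ages, Ubtf is raised in young caerulein mice alone among the groups drawn, and Nop10 is level.

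Among the genes of RNA polymerase I transcription, 4 of 6 rose in young mice and 3 of 6 in aged mice, with median log2 fold changes of 0.92 and 0.96. Mybbp1a, a nucleolar protein, is tied to RNA polymerase I activity and to processing of the precursor RNA. It read 29.7, 28.8 and 29.2 CPM in young and 31.4 and 31.4 CPM in aged untreated mice, then 79.3, 102 and 96.1 CPM in young and 122, 129 and 131 CPM in aged caerulein mice. All 4 groups were separate from one another. Its log2 fold change was 1.66 ± 0.12 in young (adjusted p = 7.29e-07) and 2.02 ± 0.14 in aged mice (adjusted p = 8.44e-07).

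Tcof1 encodes treacle, a nucleolar scaffold that brings RNA polymerase I to the ribosomal genes. Its levels were 4.44, 13.7 and 5.35 CPM in young untreated and 5.46 and 4.39 CPM in aged untreated mice, and 16.7, 19.2 and 17.7 CPM in young and 29.8, 30.2 and 32.8 CPM in aged caerulein mice. The high untreated value belongs to mouse 2, the library with lymphoid and adipocyte transcripts. The log2 fold change was 1.17 ± 0.32 in young mice (adjusted p = 0.0109), 1.82 without that library, and 2.66 ± 0.41 in aged mice (adjusted p = 0.000277).

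Polr1b and Polr1a encode the pair of largest subunits of RNA polymerase I, and only the former was called. Polr1b went from 5.34, 6.39 and 6.39 CPM to 14.3, 14.8 and 18.7 CPM in young mice and from 6.89 and 6.23 CPM to 23.6, 21.6 and 22.5 CPM in aged mice. The rise was 1.39 ± 0.14 on the log2 scale in young (adjusted p = 8.45e-06) and 1.79 ± 0.16 in aged mice (adjusted p = 5.31e-06). Polr1a read 8.99, 12.9 and 8.0 CPM in young untreated and 10.7 and 10.7 CPM in aged untreated mice, and 9.15, 9.88 and 10.7 CPM in young and 12.6, 10.6 and 11.9 CPM in aged caerulein mice. Treated and untreated values of Polr1a overlapped at both ages (log2 fold changes -0.01 ± 0.17, adjusted p = 0.95, and 0.13 ± 0.19, adjusted p = 0.624).

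Rrn3 is the factor that carries RNA polymerase I to its promoter. It was at 11.4, 9.59 and 11.7 CPM in young and 11 and 9.75 CPM in aged untreated mice, and at 9.19, 10.1 and 11.1 CPM in young and 11.1, 11.8 and 11.3 CPM in aged caerulein mice. The log2 fold changes of -0.11 ± 0.12 (adjusted p = 0.496) and 0.14 ± 0.14 (adjusted p = 0.453) did not pass.

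Ubtf encodes the upstream binding factor, which coats active ribosomal genes. Its levels were 39.2, 37.8 and 39.0 CPM in young untreated, 42.4 and 39.6 CPM in aged untreated, 58.0, 60.2 and 67.5 CPM in young caerulein and 41.4, 38.9 and 40.2 CPM in aged caerulein mice. The young caerulein group lay above all other libraries. The log2 fold change was 0.68 ± 0.10 in young (adjusted p = 0.000174) and -0.03 ± 0.11 in aged mice (adjusted p = 0.85). With library totals in place of TMM the aged value became 0.58 (adjusted p = 0.0281), and over all 19 alternatives the adjusted p ran from 0.0281 to 1.0.

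The snoRNP genes answered unevenly, with 5 of 9 higher at each age and median log2 fold changes of 0.47 and 0.43. Nop58, Nop56 and fibrillarin (Fbl) are the core proteins of box C/D particles. Nop58 stood at 11.5, 11.7 and 13.7 CPM in young and 11.8 and 10.4 CPM in aged untreated mice, and at 60.1, 77.7 and 76.4 CPM in young and 93.2, 89.7 and 83.1 CPM in aged caerulein mice. Its log2 fold change of 2.54 ± 0.14 in young mice (adjusted p = 1.33e-07), a fold of 5.81, was the highest of the set at that age, and in aged mice it was 3.00 ± 0.17 (adjusted p = 2.55e-07), a fold of 7.99. Its partners had smaller fold changes. Nop56 rose by a fold of 1.36 in young mice (12.9, 13.4 and 16.6 CPM to 19.7, 20.4 and 18.1 CPM, adjusted p = 0.00781, and 0.079 with the young mice paired by number) and was not called in aged mice (21.3 and 19.6 CPM to 24.4, 26.0 and 25.5 CPM, adjusted p = 0.0711). Fbl, the methyltransferase of the particle, rose by a fold of 1.39 in young and 1.34 in aged mice (adjusted p = 0.0123 and 0.0373), with the aged call lost under 9 of 19 alternatives and the young one with the young mice paired by number (adjusted p = 0.0601).

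Gar1, Dkc1, Nhp2 and Nop10 encode the core of box H/ACA particles, and Gar1 had the highest log2 fold change of them at both ages. Gar1 went from 3.77, 5.8 and 3.51 CPM to 19.6, 20.2 and 21.6 CPM in young mice and from 3.02 and 4.12 CPM to 15.7, 16.1 and 15.8 CPM in aged mice. That is a log2 fold change of 2.22 ± 0.18 (adjusted p = 2.62e-06) and 2.13 ± 0.22 (adjusted p = 1.64e-05). Dkc1, the pseudouridine synthase dyskerin, read 6.91, 9.95 and 7.88 CPM in young untreated and 7.73 and 6.39 CPM in aged untreated mice, and 9.41, 10.7 and 11.8 CPM in young and 14.4, 14.4 and 16.4 CPM in aged caerulein mice. It was not called in young mice (0.36 ± 0.16, adjusted p = 0.0743), where treated and untreated values overlapped, and rose in aged mice (1.10 ± 0.19, adjusted p = 0.000535). Without young untreated mouse 2 the young value of Dkc1 was 0.47 (adjusted p = 0.0149, with 0.0149 to 0.245 over all 20 alternatives).

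Nhp2, an RNA-binding subunit, was at 9.61, 9.39 and 9.21 CPM in young untreated, 11.5 and 13.7 CPM in aged untreated, 11.8, 13.7 and 14.6 CPM in young caerulein and 14.5, 15.1 and 14.4 CPM in aged caerulein mice. It rose in young mice (0.50 ± 0.12, adjusted p = 0.00414, and 0.0609 with the young mice paired by number) and was not called in aged mice (0.21 ± 0.13, adjusted p = 0.208). Nop10, the smallest subunit, read 12.5, 9.67 and 10 CPM in young and 10.6 and 11.6 CPM in aged untreated mice, against 8.1, 9.64 and 10.1 CPM in young and 12, 11.2 and 7.16 CPM in aged caerulein mice. Treated and untreated libraries overlapped at both ages for Nop10, with log2 fold changes of -0.21 ± 0.19 (adjusted p = 0.38) and -0.13 ± 0.22 (adjusted p = 0.663). These contrasts between subunits of the same particle are given as each gene's own test, and the differences between genes were not tested.

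Rrp9 and Nolc1 act beside the snoRNP cores. Rrp9, a protein of the snoRNP that guides the early cleavages, had log2 fold changes of 0.47 ± 0.23 (adjusted p = 0.111) in young and 0.70 ± 0.27 (adjusted p = 0.0493) in aged mice, the latter lost under 11 of 19 alternatives. Nolc1, a chaperone of snoRNPs, read 15.5, 15.7 and 30.7 CPM in young and 22.3 and 23.6 CPM in aged untreated mice, and 21.8, 28.6 and 27.2 CPM in young and 30.8, 33.6 and 26.4 CPM in aged caerulein mice. Young untreated mouse 3 was above all young caerulein libraries for this gene. The Nolc1 log2 fold changes were 0.33 ± 0.24 (adjusted p = 0.264) and 0.40 ± 0.27 (adjusted p = 0.252), and without that mouse the young value was 0.72 (adjusted p = 0.00297, with 0.00297 to 0.685 over all alternatives).

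All 4 abundant nucleolar proteins rose at both ages, with median log2 fold changes of 1.48 and 1.47. Ddx21, an RNA helicase of the nucleolus, went from 18.0, 26.6 and 22.3 CPM to 75.9, 88.2 and 87.8 CPM in young and from 25.7 and 20.5 CPM to 106, 117 and 101 CPM in aged mice (log2 fold changes 1.91 ± 0.16, adjusted p = 2.57e-06, and 2.23 ± 0.19, adjusted p = 3.48e-06). Gnl3, the GTPase nucleostemin, went from 8.26, 10.8 and 15 CPM to 41.3, 51.6 and 45.3 CPM in young and from 13.4 and 15.3 CPM to 52.3, 53.7 and 45.7 CPM in aged mice (2.03 ± 0.19, adjusted p = 7.18e-06, and 1.82 ± 0.22, adjusted p = 5.37e-05). Neither gene had a caerulein library within the untreated range. Npm1, the chaperone nucleophosmin, rose from 60.6, 62.0 and 58.7 CPM to 112, 122 and 142 CPM in young and from 62.9 and 57.5 CPM to 122, 144 and 113 CPM in aged mice (1.05 ± 0.13, adjusted p = 5.29e-05, and 1.07 ± 0.15, adjusted p = 0.000141). Nucleolin (Ncl), which binds the nascent precursor, rose by 0.81 ± 0.13 and 1.12 ± 0.15 on the log2 scale.

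In the small subunit group 15 of 16 genes were higher in young mice and 16 of 16 in aged mice, with a median log2 fold change of 1.67 at each age. For all 16, every caerulein library was above every untreated library at both ages. Rrp12, a repeat protein of small subunit maturation and export, read 4.44, 4.88 and 5.06 CPM in young and 4.62 and 4.33 CPM in aged untreated mice, and 21.3, 30.0 and 26.8 CPM in young and 33.2, 40.5 and 35.1 CPM in aged caerulein mice. Its log2 fold change of 3.02 ± 0.18 in aged mice (adjusted p = 4.17e-07) was the highest of the set there, and in young mice it was 2.44 ± 0.15 (adjusted p = 2.68e-07).

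Wdr43 and Utp20 belong to the processome, the early particle that forms on the precursor RNA. Wdr43 went from 11.7, 12.7 and 15.8 CPM to 54.9, 74.7 and 71.6 CPM in young and from 16.0 and 12 CPM to 77.3, 72.2 and 66.8 CPM in aged mice (2.32 ± 0.17, adjusted p = 1.09e-06, and 2.37 ± 0.20, adjusted p = 3.75e-06). Utp20, a large scaffold, went from 5.73, 8.07 and 7.14 CPM to 29.4, 32.2 and 30.1 CPM in young and from 6.47 and 6.28 CPM to 37.3, 38.6 and 36.0 CPM in aged mice (2.12 ± 0.13, adjusted p = 2.49e-07, and 2.55 ± 0.15, adjusted p = 4.36e-07). Among other factors of the group, Noc4l rose by 0.70 in young (adjusted p = 0.0536 with the young mice paired by number) and 1.30 in aged mice and the helicase Ddx10 by 1.75 and 2.05, on the log2 scale. Of the late factors, Nob1, the nuclease that makes the final cut of the small subunit RNA, rose by 1.34 and 1.45, and its partner Pno1 by 1.89 and 1.79. Ltv1 rose by 1.61 and 1.63, the GTPase-like Tsr1 by 1.89 and 2.38, and Bysl by 1.33 and 1.59.

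Imp4 and Wdr75 had the smallest log2 fold changes of the small subunit group in young mice. Imp4, a processome protein, was not called in young mice (8.77, 8.59 and 6.85 CPM to 9.28, 11.5 and 10.6 CPM, 0.37 ± 0.17, adjusted p = 0.0787) and rose in aged mice (7.73 and 5.58 CPM to 11.3, 12.3 and 9.82 CPM, 0.76 ± 0.19, adjusted p = 0.00722). Wdr75 read 8.37, 7.03 and 9.32 CPM in young and 9.41 and 8.99 CPM in aged untreated mice, and 9.67, 12.8 and 11 CPM in young and 17.3, 17.3 and 19.1 CPM in aged caerulein mice. The rise of Wdr75 was 0.44 ± 0.14 in young (adjusted p = 0.0223) and 0.96 ± 0.16 in aged mice (adjusted p = 0.000535). Without young untreated mouse 2 the young value was 0.28 and was not called (adjusted p = 0.0945, with 9.30e-04 to 0.141 over all alternatives, the latter with the young mice paired by number).

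In the large subunit group 12 of 13 genes rose at each age, with median log2 fold changes of 1.28 and 1.27. Gtpbp4, a GTPase of nucleolar precursor particles, went from 9.67, 10.4 and 10.2 CPM to 45.7, 55.7 and 54.3 CPM in young and from 9.58 and 10.7 CPM to 55.7, 53.7 and 48.6 CPM in aged mice (2.36 ± 0.12, adjusted p = 8.07e-08, and 2.37 ± 0.14, adjusted p = 3.69e-07). The annotation holds 7 pseudogenes named for Gtpbp4 and 2 named for Mrto4, so reads of these genes could be split between copies. Only names built from a member's symbol were searched, so copies of any member under other names would be missed. Noc3l, an early assembly factor, went from 4.44, 6.75 and 6.56 CPM to 20.3, 25.0 and 23.1 CPM in young and from 6.81 and 5.15 CPM to 29.4, 26.9 and 25.5 CPM in aged mice (1.94 ± 0.17, adjusted p = 4.23e-06, and 2.20 ± 0.20, adjusted p = 7.27e-06). Nle1, a docking partner of the remodelling ATPase, went from 5.17, 3.48 and 5.87 CPM to 14.1, 16.6 and 14.7 CPM in young and from 7.06 and 7.2 CPM to 16.7, 19.9 and 15 CPM in aged mice (1.65 ± 0.19, adjusted p = 2.63e-05, and 1.27 ± 0.21, adjusted p = 0.00048).

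Pes1, Bop1 and Wdr12 form a complex needed to process the large subunit RNA, and the first 2 were called at both ages. Pes1 rose by 1.24 ± 0.12 and 1.60 ± 0.14 and Bop1 by 0.93 ± 0.12 and 0.99 ± 0.14 on the log2 scale in young and aged mice. Wdr12 was called at neither age: 3.37, 4.0 and 4.26 CPM in young and 4.37 and 3.41 CPM in aged untreated mice stood beside 3.53, 4.35 and 5.25 CPM in young and 6.99, 4.39 and 6.38 CPM in aged caerulein mice. The treated range of Wdr12 overlapped the untreated one in young mice and lay just above it in aged mice (0.17 ± 0.23, adjusted p = 0.552, and 0.61 ± 0.26, adjusted p = 0.0775). Among the rest, the methyltransferase Nop2 rose by 1.39 and 1.45, Noc2l by 1.31 and 1.53, Nop16 by 1.28 and 0.97, Rrs1 by 1.12 and 1.27, Nip7 by 1.03 and 0.91, and Mrto4 by 1.52 and 1.02. Rrp1b rose by 0.64 ± 0.22 in young (adjusted p = 0.0338, lost under 9 of 20 alternatives, among them the pairing of young mice by number, 0.0816) and by 1.53 ± 0.27 in aged mice (adjusted p = 0.000662).

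The sizes of the young and aged responses ran in parallel over the set. Across the 49 genes the young and aged log2 fold changes, which share no library, had Pearson's r of 0.88 and Spearman's rho of 0.87, given as a description since the genes are measured in the same libraries and are not independent. Over all 14113 genes tested the same figures were 0.74 and 0.78. The size of the response bore little relation to the starting level, with r of -0.10 against log2 CPM in young untreated mice and -0.24 in aged untreated mice. The same untreated libraries enter the fold change and the starting level, which by itself pulls r downward, so these values are descriptions only.

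**Figure D3:**
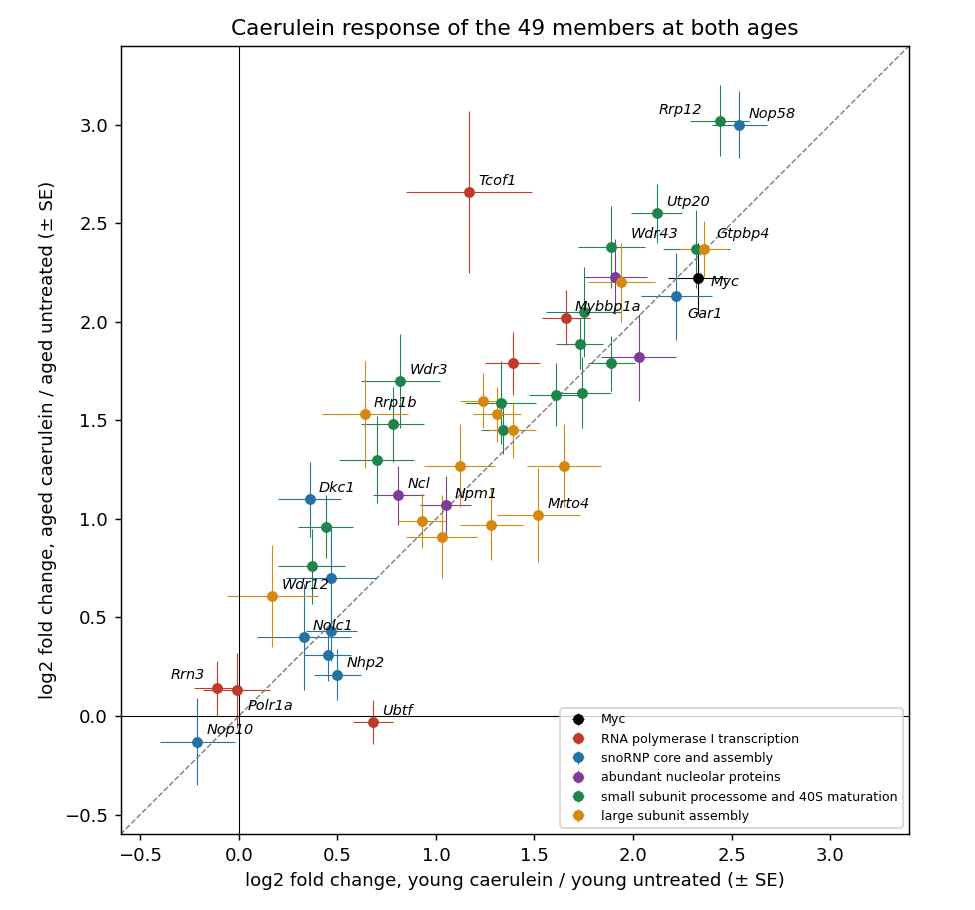
Log2 fold change after caerulein in young (horizontal axis) and aged mice (vertical axis) for each of the 49 genes, coloured by role, with SE bars and a dashed line of equal response. Points follow the dashed line from Nop10 (-0.21 and -0.13) to Nop58 (2.54 and 3.00), with Tcof1 (1.17 and 2.66) above it and Ubtf (0.68 and -0.03) below it.

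Since the members moved together, their promoters were read for the E-box letters CACGTG, which are the same on both strands. RefSeq promoter windows (GRCm38.p6, the build of the counts, with 250 bases before and 50 from the start on) matched 41 of the 49 genes. Those without a window were Myc, Tcof1, Fbl, Npm1, Rrp12, Wdr36, Bop1 and Rrs1. The 41 genes have 50 windows, and a gene was counted once if any of its windows held the letters. CACGTG occurred in 11 of the 41 genes (26.8%), in 11.7% of the 10321 genes tested that have a window and in 8.09% of all 27025 genes with one. In 8 of the 41 (19.5%) it lay in the 50 bases from the start on, which held for 1.87% of the genes tested, and in 3 of 41 (7.32%) before the start, against 9.84%. The split at the start was looked at after the positions had been seen. The stretches around the element in those 8 genes are shown on each gene's own strand, with the element in capitals:
Wdr43: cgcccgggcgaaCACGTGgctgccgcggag
Utp20: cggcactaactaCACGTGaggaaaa
Tsr1: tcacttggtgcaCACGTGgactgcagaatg
Pno1: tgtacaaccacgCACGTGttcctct
Ltv1: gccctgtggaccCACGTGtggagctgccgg
Mybbp1a: gtcttctgagccCACGTGtttg
Pes1: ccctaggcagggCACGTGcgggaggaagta
Nle1: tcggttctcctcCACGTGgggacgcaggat

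In GRCm38.p6 these stretches are chr17:71616220-71616249 (plus strand) for Wdr43, chr10:88826765-88826789 (minus) for Utp20, chr11:74898092-74898121 (plus) for Tsr1 and chr11:17211540-17211564 (minus) for Pno1. The others are chr10:13193092-13193121 (minus) for Ltv1, chr11:72441355-72441376 (plus) for Mybbp1a, chr11:3963965-3963994 (plus) for Pes1 and chr11:82908355-82908384 (minus) for Nle1. All 8 genes rose at both ages, as did 38 of all 49 members, and 5 of the 8 are small subunit factors. The other 3 genes with the letters, Nop2, Rrn3 and Imp4, have them before the start. They are shown as well. Nop2 rose at both ages (log2 fold changes 1.39 and 1.45), Rrn3 holds the element at 2 positions and was called at neither age, and Imp4 was called in aged mice only:
Nop2: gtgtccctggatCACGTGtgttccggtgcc
Rrn3, farther from the start: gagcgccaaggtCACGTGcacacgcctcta
Rrn3, nearer the start: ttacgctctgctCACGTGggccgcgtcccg
Imp4: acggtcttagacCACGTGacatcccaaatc

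The Nop2 stretch is chr6:125131811-125131840 (plus), and those of Rrn3 are chr16:13780472-13780501 and chr16:13780639-13780668 (plus). That of Imp4 is chr1:34439696-34439725 (plus). The 11 genes with CACGTG had median log2 fold changes of 1.65 in young and 1.63 in aged mice, and the 30 with a window but without these letters had 1.16 and 1.38. The ranges overlapped almost wholly, from -0.11 to 2.32 with the letters and from -0.21 to 2.54 without them in young mice. A match of letters is not a measured binding site, and binding was not measured here.

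Several members hold snoRNA genes between their start and end on the same strand. Whether these lie in introns, and which particles they serve, was not tested. This held for 7 of the 49 genes (14.3%), namely Nop56 (5 snoRNAs), Nop58 (4), Ncl (3), Gnl3 (3), Wdr43 (3), Tsr1 (2) and Dkc1 (1), against 1.62% of the 12684 protein-coding genes tested. The host genes had median log2 fold changes of 1.89 in young and 1.82 in aged mice, and the other 42 members 1.26 and 1.46. Both groups of genes spanned wide ranges, with hosts running from 0.36 to 2.54 in young mice.

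Per length of transcript, Npm1 ranked highest of the set in every group, at 22.7 ± 0.62 RPKM, reads per kilobase of exon scaled as CPM (SD, n = 3), in young untreated and 47.0 ± 5.79 (SD, n = 3) in young caerulein mice. The level of Myc was 4.34 ± 0.756 RPKM (SD, n = 3) in young and 5.18 ± 0.457 (SD, n = 2) in aged untreated mice, the rank of 12 and 10 among the 49. After caerulein it was 21.8 ± 2.08 RPKM (SD, n = 3) in young and 24.2 ± 2.93 (SD, n = 3) in aged mice, and ranked 2 in both groups. Mybbp1a (15.9 and 21.9 RPKM), Wdr43 (19.4 and 20.9), Ddx21 (16.2 and 20.9) and Ncl (16.4 and 19.5) came next in caerulein mice, and Myc exceeded the nearest of them, Wdr43 in young and Mybbp1a in aged mice, by less than the larger SD of the pair in each group. The lengths are those of the deposited table, which sum all annotated exons, so the RPKM of genes with long alternative exons is understated.

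In untreated mice no member was called between the ages. Between aged and young untreated mice 0 of the 49 genes were called by edgeR and 0 by DESeq2, where 0.0921% of all genes tested were called by edgeR. The median log2 difference of the members was 0.08 (range -0.70 to 0.57). At an unadjusted p below 0.05 there were 4, Nop56, Nhp2, Nle1 and Wdr3, out of 1320 such genes in all. All aged values were above all young values for 9 members and below for 1, Wdr3, as for 12.4% and 10.8% of genes tested. With 2 aged and 3 young libraries the interval of the Myc difference ran from -0.07 to 0.59 on the log2 scale.

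After caerulein the aged mice had the higher level of most members, by a small margin. The aged-to-young log2 difference was positive for 46 of the 49 genes and its median was 0.25, beside 7269 of 14113 genes (51.5%) and a median of 0.01 over all genes. With library totals in place of TMM, which shifts the all-gene median by -0.117 to -0.10, the members' median was 0.13. All 3 aged libraries lay above all 3 young ones for 23 members and below for 2, Ubtf and Gar1, as for 17.3% and 13.6% of genes tested. Summed over the set, CPM was 1370 to 1600 in young and 1730 to 1850 in aged caerulein mice, whereas in CPM without TMM scaling the sums, 1760 to 1960 and 1850 to 2190, overlapped.

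Only 3 members passed the test between the treated groups, 2 higher in aged mice and 1 lower, where 2.46% and 1.27% of all genes tested did. Wdr75, at 9.67, 12.8 and 11 CPM in young and 17.3, 17.3 and 19.1 CPM in aged caerulein mice, was higher by 0.68 ± 0.14 (adjusted p = 0.0219). Mybbp1a was higher by 0.46 ± 0.11 (adjusted p = 0.0472). Ubtf was lower by its log2 difference of -0.62 ± 0.10 (adjusted p = 0.00644), the level of aged caerulein mice being that of untreated mice. With each aged caerulein mouse left out in turn, or young caerulein mouse 1, 0 members were called higher. Over all 19 alternatives the adjusted p ran from 0.00215 to 0.143 for Wdr75, from 0.00217 to 0.413 for Mybbp1a and from 3.25e-07 to 0.0645 for Ubtf. Tcof1 (0.79 ± 0.31, adjusted p = 0.207), Rrp1b (0.68 ± 0.22, adjusted p = 0.123) and Tsr1 (0.62 ± 0.16, adjusted p = 0.0625) had differences as large, with aged values all above young ones.

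The library of young untreated mouse 2 is in neither of these groups, but enters the shared fit. Without it 12 members were called higher in aged caerulein mice, Dkc1, Heatr1, Mybbp1a, Nop56, Polr1b, Rrp12, Rrp1b, Rrs1, Tcof1, Tsr1, Wdr36 and Wdr75, and 2 lower, Gar1 and Ubtf. The share of all genes called rose with it, to 7.85% higher and 6.31% lower. Fitting only the 2 caerulein groups gave 13 higher and 2 lower, with 7.81% and 5.75% of all genes. The authors' deposited table has 11 members higher and 2 lower in this comparison at an adjusted p below 0.05, and 4.36% and 2.86% of all genes it lists.

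**Figure D4:**
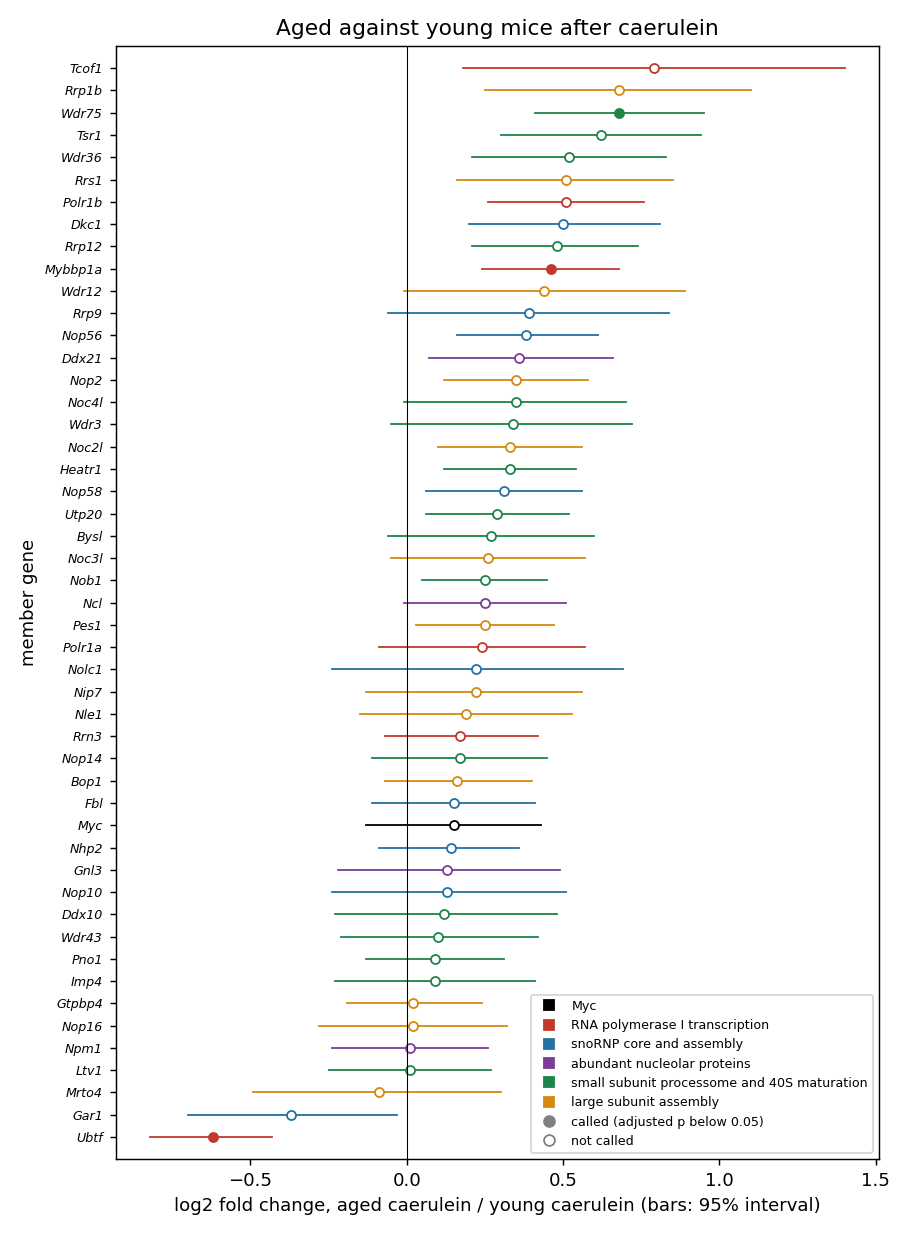
Log2 difference between aged and young caerulein mice for each of the 49 genes (3 mice per group), sorted by size and coloured by role, with the approximate 95% interval from the standard error and filled points for called genes. Of the points 46 lie right of 0, with Wdr75 and Mybbp1a filled, and Ubtf is the filled point at -0.62.

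Whether the response itself differed with age was tested as the difference of the 2 fold changes. No member passed (0 higher and 0 lower by edgeR, where 0.0142% of all genes tested did), while 10 had an unadjusted p below 0.05, as did 1758 of all genes. Those 10 were Ubtf, with a smaller response in aged mice (-0.71 ± 0.15, adjusted p = 0.103), and Tcof1, Nop58, Dkc1, Rrp12, Utp20, Wdr3, Wdr36, Wdr75 and Rrp1b, with larger ones. The size was 1.49 ± 0.51 for Tcof1 (adjusted p = 0.285; 0.79 ± 0.20 without young untreated mouse 2, adjusted p = 0.0597, with 0.00181 to 0.652 over all 18 alternatives), 0.89 ± 0.34 for Rrp1b (adjusted p = 0.341) and 0.46 ± 0.20 for Nop58 (adjusted p = 0.382). For Myc it was -0.11, with an interval of -0.54 to 0.33. Without young untreated mouse 2, Ubtf (-0.70 ± 0.14, adjusted p = 0.0207) and Wdr36 (0.84 ± 0.19, adjusted p = 0.0372) passed, and by DESeq2 with all libraries Ubtf did (adjusted p = 0.00234). Over all 18 alternatives the adjusted p of this difference ran from 0.00234 to 0.538 for Ubtf and from 0.0372 to 0.724 for Wdr36. The response was the larger one in aged mice for 36 of 49 members and for 7715 of 14113 genes, though for several members the sign of the difference changed under an alternative.

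The wider pathway was read from a list of 145 other ribosome biogenesis genes, of which 143 were tested. This list too was chosen with earlier results of these data known. In young mice 88 rose and 14 fell (61.5% and 9.79%, beside 27.5% and 24.7% of all genes). In aged mice 89 rose and 13 fell (62.2% and 9.09%, beside 27.0% and 21.2%). The median log2 fold changes were 0.69 and 0.81. Other large subunit factors had the highest share, 40 of 45 higher in young and 41 of 45 in aged mice. Among them Sbds, which readies the large subunit for its first round of translation, rose by 2.68 and 2.49, and the export adaptor Nmd3 by 2.37 and 2.06, while the helicase Ddx55 fell (-2.48 and -2.62). Other small subunit factors were higher in 26 of 41 at each age, such as Rcl1 (1.93 and 1.93) and Utp4 (1.57 and 1.73), and Utp6 fell (-0.96 and -0.58).

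Of 11 other RNA polymerase I genes 8 rose at each age (72.7%, beside 27.5% and 27.0% of all genes), among them Polr1f (1.48 and 1.33) and Taf1d (1.55 and 1.38). In young mice 2 fell, the termination factor Ttf1 (-0.74 and -0.67) and Polr1h (-0.62 and -0.53), and in aged mice only Ttf1 was called lower. The 22 genes of RNA polymerase III, which makes transfer RNA and the smallest ribosomal RNA, had 6 higher and 6 lower at each age (27.3% each way), shares near those of all genes. Polr3d (1.82 and 1.98) and Polr3e (1.73 and 1.58) rose and Polr3k (-2.30 and -2.79) and Polr3g (-2.90 and -2.63) fell. Of 11 snoRNP assembly genes 4 rose and 2 fell in young mice (36.4% and 18.2%, beside 27.5% and 24.7% of all genes). In aged mice 5 rose and 2 fell (45.5% and 18.2%, beside 27.0% and 21.2%). Nufip1 (1.62 and 1.64) and Naf1 (1.01 and 2.04) were higher and Pih1d1 (-1.22 and -1.10) lower. Of 13 tested genes of the RNA exosome, the nuclease complex that trims the precursor, 4 rose and 2 fell in young mice and 3 rose and 1 fell in aged mice, where the shares higher, 30.8% and 23.1%, were near those of all genes.

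**Figure D5:**
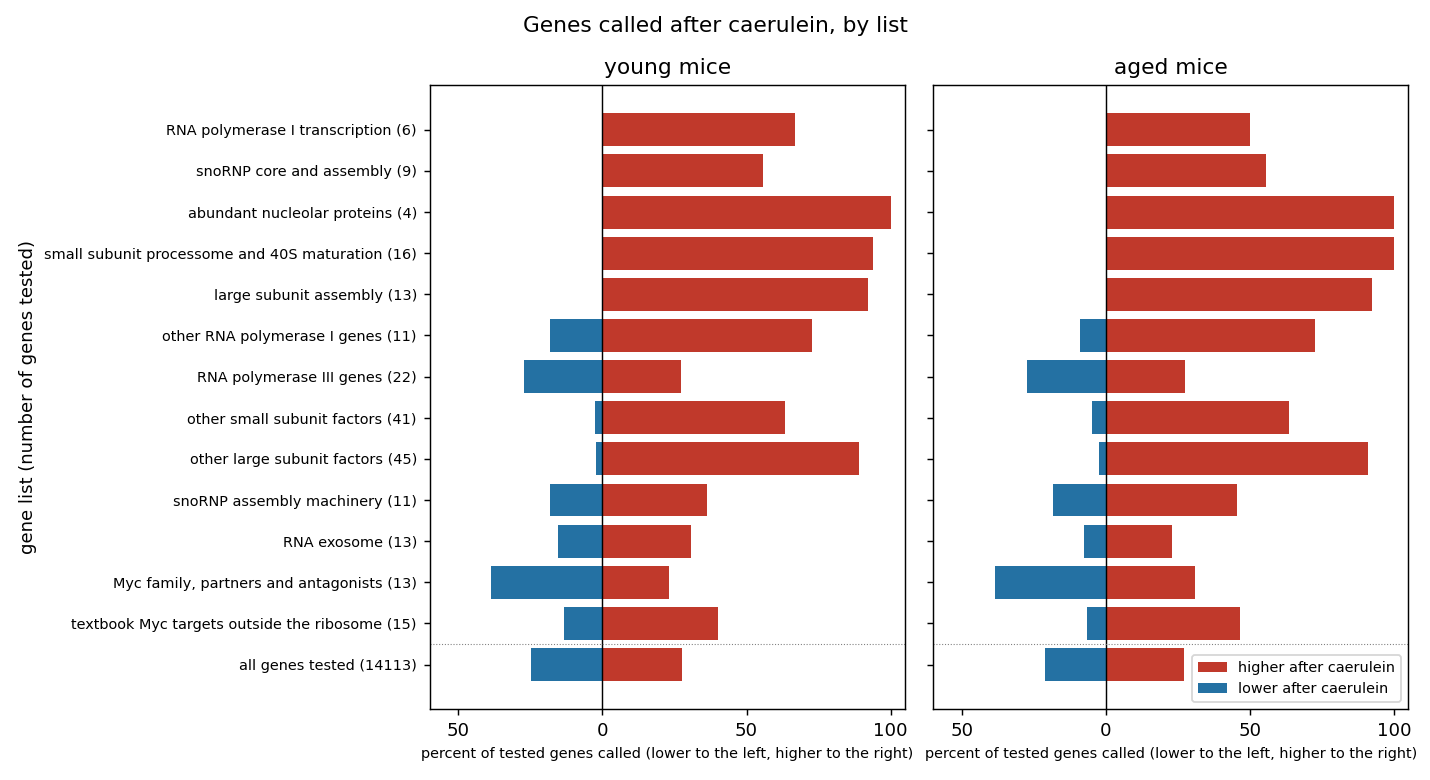
Percent of the tested genes of each list called higher (red, right) or lower (blue, left) after caerulein in young and aged mice, with the number of genes tested in brackets and all 14113 genes in the bottom bar. The bars of the small subunit, large subunit and abundant nucleolar lists reach above 90% higher with nothing lower, the RNA polymerase III bar is balanced, and the all-gene bar is 27.5% higher and 24.7% lower in young mice.

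Of 13 tested genes that act with or against Myc, 3 rose and 5 fell in young mice (23.1% and 38.5%, beside 27.5% and 24.7% of all genes), and 4 rose and 5 fell in aged mice (30.8% and 38.5%, beside 27.0% and 21.2%). Max, the partner that Myc needs to bind DNA, was not called (-0.26, adjusted p = 0.19, and 0.01, adjusted p = 0.977). The partners of Max or Mlx that oppose or parallel Myc moved both ways: Mxd1 (-1.64 and -1.58) and Mxi1 (-0.56 and -1.70) fell and Mnt (1.10 and 1.95) rose. Fbxw7, which marks Myc protein for destruction, fell (-0.53 and -0.89), and so did the relative Mycn (-2.50 and -1.96). Of 15 textbook Myc targets outside ribosome assembly 6 rose and 2 fell in young mice, beside 27.5% and 24.7% of all genes. In aged mice 7 of the 15 rose and 1 fell, beside 27.0% and 21.2% of all genes. Hspd1 (3.02 and 2.02) and Eif4a1 (1.41 and 1.55) were higher and Ppat (-1.10 and -0.69) lower at both ages. Cad, the enzyme that opens pyrimidine synthesis, was not called in young mice (0.28, adjusted p = 0.102) and rose in aged mice (1.18, adjusted p = 9.13e-05). It was higher in aged than young caerulein mice by 0.90 (adjusted p = 0.00458). In that comparison 1 of the 15 targets was called higher and 1 lower (6.67% each, beside 2.46% and 1.27% of all genes). The log2 differences of the 15 ran from -1.11 to 0.90.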

How the data were processed

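Polyadenylated RNA of 11 pancreata was sequenced as read pairs of 150 bases. Per the submitters' processing notes, HISAT2 2.0.5, featureCounts 1.5.0-p3 and the mm10 build were used. Whether counting used strand, and which annotation release, is not stated. The authors deposited unnormalized counts with a gene length in bases, and tables of their own comparisons with log2 fold changes and adjusted p-values, by a tool not stated. A further 77 per-library columns of other values were not used.

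Counts were fitted as 4 groups in 1 model with edgeR 4.0.16 (TMM scaling, filterByExpr with a minimum count of 10, quasi-likelihood test, Benjamini-Hochberg adjustment over the 14113 genes left, threshold 0.05), in R 4.3.3. DESeq2 1.42.0 was an alternative. The procedure was tested on simulated data with 200 changed genes. An SE is the absolute log2 fold change over the square root of F. CPM used TMM-scaled totals and RPKM the deposited lengths; precision follows from the 14223190 to 26537091 counts per library. Samples were grouped by their labels. Replicates are separate mice, so p-values measure the spread between mice.

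The members and the lists of other genes were chosen with earlier results of these data known. Values in every library are given for Myc, for the 3 members per role with the largest mean absolute log2 fold change over both caerulein comparisons, for members called between ages and for members not called at both ages. Of other lists, up to 2 genes per direction with the smallest p in young mice are named. The Myc lists go beyond this rule, with Max, Cad and more than 2 lower genes of the Myc network named. Deviations from the group means correlated above 0.1 in all 3 same-number pairs of young untreated and young caerulein mice (0.106 to 0.149). By these data the numbers were taken to pair that comparison, though the labels do not state what a number marks. Young untreated mouse 1 and young caerulein mouse 3 also reached 0.149, so these correlations cannot settle whether the numbers mark pairs. In the other comparisons 0 to 1 same-number pairs were above 0.1. The main fit does not use this pairing. Young p-values given as paired come from edgeR on the young groups with the number as a block, chosen after seeing the data. Other alternatives were a minimum count of 30, no filter, DESeq2 size factors, library totals, TMM without the 50 most abundant genes, DESeq2, only the groups compared, a mouse-number block and each library left out.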

Additional observations from a re-analysis of the deposited data

How the results depend on the processing

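The counts of members higher after caerulein held within 1.5 times under every alternative run: 39 to 42 in young and 38 to 42 in aged mice with each library left out, and 35 to 45 and 39 to 47 under the others, with 0 lower throughout. The comparison of treated groups depended most on the processing. From 2 higher in aged mice it went to 4 with a minimum count of 30, to 1 with DESeq2 size factors and with TMM without the 50 most abundant genes, to 0 with library totals, to 4 with DESeq2 and to 13 with only the groups compared; leaving out each library gave 0 to 12, the 12 without young untreated mouse 2. The 1 lower member went to 0 with library totals, to 2 with only the groups compared, and to between 1 and 2 with each library left out. For the difference of responses, 0 higher became 1 with no filter (Tcof1, 1.46), and 0 lower became 1 with DESeq2; leaving out each library gave 0 to 1 in each direction. The cause was not tested.

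Caerulein fold changes that turned direction all belong to members near 0. The difference of responses was less settled, and over 18 alternatives its sign changed for several members. Among them were Gar1 (-0.38 to 0.17), Nolc1 (-0.33 to 0.23) and Wdr43 (-0.15 to 0.26), while Tcof1 (0.79 to 1.77) and Ubtf (-0.76 to -0.60), for example, kept theirs. Polr1a in young mice turned to 0.03 with no filter, to 0.43 with library totals, and, within -0.16 to 0.17 over all libraries left out, without young untreated mouse 2 (0.17), aged untreated mouse 2 (0.01), aged untreated mouse 3 (0.01) or young caerulein mouse 1 (0.04). Library totals also turned Rrn3 (0.41) and Nop10 (0.30) in young mice, Ubtf (0.58) and Nop10 (0.47) in aged mice, and the difference of responses of Myc (0.00). In aged mice Ubtf was 0.04 without aged untreated mouse 2 (-0.09 to 0.04 over all libraries left out) and Nop10 0.06 without aged caerulein mouse 3 (-0.28 to 0.06). The call on Ubtf between treated groups was lost with library totals alone, and in aged mice that on Imp4 without untreated mouse 3 (0.55) and that on Mrto4 without untreated mouse 2 (0.89). Removing either aged untreated mouse, or aged caerulein mouse 1 or 2, ended the call on Fbl, and those libraries, aged caerulein mouse 3 or young caerulein mouse 1 or 3 the call on Rrp9. The young call on Rrp1b ended without untreated mouse 1 or 3, young caerulein mouse 2 or 3 or aged caerulein mouse 1, and that on Wdr75 without young caerulein mouse 2 (0.33). New calls came without young untreated mouse 3 for Rrp9 in young mice (0.71) and for Nop56 in aged mice (0.30), and without aged caerulein mouse 2 for Wdr12 (0.79).

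With the mouse number as a replicate block over all groups, 1 member was higher between treated groups. In the young groups alone, paired by number, 35 members were higher and 0 lower, with 24.7% and 18.8% of 12848 genes, and the calls on Nop56, Fbl, Nhp2, Noc4l, Wdr75 and Rrp1b were lost; this fit has fewer libraries and was added after seeing the data. In the other comparisons the numbers were not taken as pairs. Over all groups, deviations correlated above 0.1 in 6 of 15 same-number pairs (-0.207 to 0.163) and in 5 of 30 pairs of different numbers (-0.245 to 0.303), and young untreated mouse 1 correlated more with young caerulein mouse 3 (0.149) than with mouse 1 (0.106).

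The lowest count of any member in any library was 35 reads, and the smallest group held 2 aged untreated mice.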

Other observations

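Several members share exon bases with a gene on the opposite strand, and since it is not stated whether counting used strand, reads of such a pair cannot be told apart. The share of exon bases was 32.3% for Tsr1 (with Srr), 20.9% for Noc2l (with Samd11), 16.2% for Wdr3 (with Spag17 and Gdap2) and 9.37% for Bysl (with Ccnd3). The other promoter letters searched, on both strands, were CACGCG, found in 31.7% of the 41 members with a window and 19.7% of the genes tested with one, and GGGCGG, found in 73.2% and 67.8%. By log2 fold change Myc ranked 703 of 14113 genes in young and 1083 in aged mice. The authors' deposited table has 35 members higher after caerulein in young and 40 in aged mice, with 0 lower, where 14.2% and 17.7% of all genes it lists are higher and 12.3% and 13.8% lower.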
